A study of Mus musculus with 24 samples.

Results

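The genes described here are 10 transcripts grouped under the name of T lymphocyte and natural killer (NK) cell genes, a name that suits Klra17 least. They are the receptor genes Cd3d, Cd8a, Cd8b1 and Thy1, the lectin-like receptor genes Klrd1 and Klra17, the granule genes Gzma, Gzmb and Nkg7, and the chemokine gene Ccl5. They were chosen by symbol, and every probe whose gene symbol was one of the 10 was taken from an Illumina expression array with 25697 probes. There were 10 such probes, for 9 of the genes. No probe stood under Gzma or its older names, so Gzma was not analysed here. The probes of Cd8a and Gzmb were at or below background on all 24 arrays. The other 7 genes passed the filter on dim probes and were tested among 10733 genes.

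The arrays read total RNA of mouse liver, with 12 samples labelled control and 12 labelled DNMT1 knockout, and 4 arrays for each genotype at week 4, week 8 and week 20. DNMT1 is the enzyme that copies DNA methylation onto newly made DNA. The labels give no strain, no sex, no Cre driver or other means of deletion, no treatment and no allele carried by both genotypes, and they do not say from when the weeks are counted. They also leave unsaid whether each array is an animal of its own, and the p-values below therefore describe the scatter among arrays, which may be technical.

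A T cell reads peptides through its receptor, which signals through the CD3 chains, and the co-receptor CD8 marks the T cells that can kill. NK cells kill without that receptor and use lectin-like receptors to sense their targets. Both release granzymes and perforin from granules, and both release chemokines such as CCL5 that draw further lymphocytes. Liver sinusoids hold resident T and NK cells even in health. Some of the genes are also used outside these cells: Thy1 marks fibroblasts as well as T cells, CCL5 is also made by activated macrophages, and in mice the product of Klra17, Ly49Q, is known from plasmacytoid dendritic cells and myeloid cells rather than from NK cells.

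Intensities below are the authors' background-subtracted, normalized values on a linear scale, where noise leaves values below 0. An intensity over 16.3 was counted as above background. Each difference is the knockout mean less the control mean in units of log2(intensity + 16), with its SE after ± and 4 arrays per group, and this scale understates the change of weak signals. A gene is said to have risen or fallen only where limma's adjusted p over the 10733 genes was under 0.05. In bulk tissue, more cells of a type and more RNA per cell cannot be told apart.

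Between 12182 and 12268 probes were above background on each array. The liver gene Alb, albumin, read 92.8 or more on every array, and differed by -0.93 ± 0.16, -2.94 ± 0.16 and -1.41 ± 0.16 at weeks 4, 8 and 20 (limma adjusted p = 1.2e-04, 3.3e-13 and 5.6e-06). The summed intensity of 16 hepatocyte markers lay between 231207 and 272274 over all arrays. Of these 16, 0 were higher and 5 lower in knockouts at week 4, 1 higher and 8 lower at week 8 (median difference -0.30), and 0 higher and 2 lower at week 20. Of all genes tested, 14.8%, 24.9% and 3.44% were higher and 12.4%, 24.0% and 2.23% lower at weeks 4, 8 and 20. Dnmt1 itself differed by -0.25 ± 0.19, -0.30 ± 0.19 and -0.58 ± 0.19 (limma adjusted p = 0.364, 0.200 and 0.0737), none past the threshold, and whether its probe lies within a deleted stretch is not stated in the labels. Some arrays stood apart from their group. Control week 20 replicates 3 and 4 read 6266 and 5870 for the acute phase gene Saa1, against 42.2 and 44.3 on replicates 1 and 2. Knockout week 8 replicate 4 read -10.8 for Eif2s3y, a gene of the Y chromosome, while the other 3 arrays of its group read 544 to 600. Saa1 and Eif2s3y were chosen for this check after their values were seen.

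The promoters of Cd3d, Klra17 and Nkg7 are shown as the tested genes whose windows the sequence table holds, with CG, the pair of bases that DNMT1 methylates, in capitals. The sequences are from RefSeq on build GRCm38.p6, 300 bases around the annotated start, read 5′ to 3′ on the strand of the gene, and 6 of the 10 genes were in that table. Cd3d lies at chr9:44981536-44981835 on the plus strand, Klra17 at chr6:129876623-129876922 on the minus strand and Nkg7 at chr7:43436888-43437187 on the plus strand.
Cd3d: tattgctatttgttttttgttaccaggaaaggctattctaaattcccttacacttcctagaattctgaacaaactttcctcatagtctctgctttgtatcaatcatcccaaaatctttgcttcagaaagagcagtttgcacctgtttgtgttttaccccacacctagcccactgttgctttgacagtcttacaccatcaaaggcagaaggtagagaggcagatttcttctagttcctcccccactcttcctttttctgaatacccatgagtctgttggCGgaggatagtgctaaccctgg
Klra17: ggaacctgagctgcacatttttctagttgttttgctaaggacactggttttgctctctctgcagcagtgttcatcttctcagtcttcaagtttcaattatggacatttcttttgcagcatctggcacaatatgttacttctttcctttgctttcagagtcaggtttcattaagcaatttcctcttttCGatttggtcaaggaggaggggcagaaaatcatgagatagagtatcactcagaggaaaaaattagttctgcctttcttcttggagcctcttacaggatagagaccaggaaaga
Nkg7: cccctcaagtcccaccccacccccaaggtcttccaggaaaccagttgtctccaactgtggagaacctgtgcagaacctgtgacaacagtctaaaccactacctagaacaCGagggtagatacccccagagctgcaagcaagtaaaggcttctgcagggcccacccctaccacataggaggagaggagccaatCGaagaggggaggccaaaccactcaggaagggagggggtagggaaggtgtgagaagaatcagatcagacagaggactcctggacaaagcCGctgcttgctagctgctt
The Cd3d and Klra17 windows each held 1 CG and the Nkg7 window held 3. Of 32851 promoters of this length, 94.6% held at least 1 CG, with a median of 7, and 14.1% held 1 or fewer. Methylation was not measured on these arrays, so the counts describe the sequences only.

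At week 8 each of the 7 genes that could be tested rose in knockout liver. Of all 10733 genes, 24.9% rose in that comparison. Of the arrays above background, 4 of 9 for Klra17 and 3 of 6 for Nkg7 were knockout arrays of that week. Nkg7 would not have passed the filter without them, so the count of 7 is a description. At week 4, 3 of the 7 rose, Ccl5, Cd8b1 and Thy1, against 14.8% of all genes. At week 20, 2 of the 7 rose, Ccl5 and Klrd1, against 3.44% of all genes. The knockout arrays all lay above the control arrays for 3, 7 and 1 of the 7 at weeks 4, 8 and 20, as they did for 15.8%, 22.5% and 5.60% of all genes. None of the 7 fell in knockout liver at any of these weeks, where 12.4%, 24.0% and 2.23% of all genes did at weeks 4, 8 and 20. The median difference of the 7 was 0.70, 2.42 and 0.64 at weeks 4, 8 and 20, and that of all genes was -0.012, -0.067 and 6.1e-04.

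**Figure D1:**
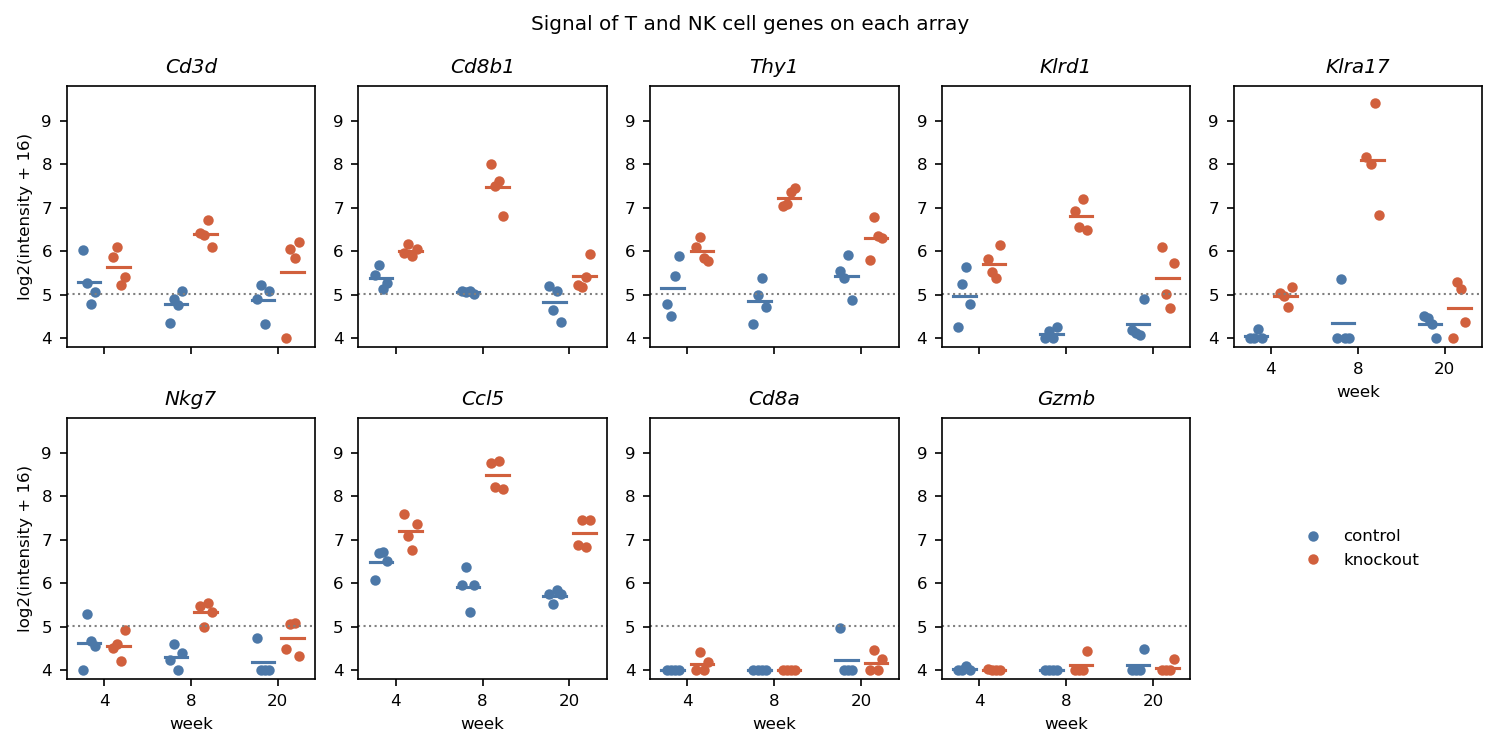
Signal of the 9 genes with a probe on each of the 24 arrays, as log2(intensity + 16) against week, for control (blue) and knockout (orange). Points are arrays, short lines are group means of 4 arrays and the dotted line is the background threshold; the knockout group of week 8 has the highest mean for each of the 7 tested genes, while Cd8a and Gzmb stay under the line.

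Cd3d encodes the CD3 delta chain, part of the signalling complex of the T cell receptor. Its intensity at week 8 was 4.60, 14.0, 11.1 and 18.3 on the control arrays and 69.3, 67.2, 90.0 and 52.6 on the knockout arrays. The groups did not overlap, and Cd3d rose by 1.62 ± 0.36 (limma adjusted p = 5.4e-04). At week 4 control arrays read 49.3, 22.8, 11.6 and 17.3 and knockout arrays 42.2, 52.2, 21.2 and 26.6. These overlapped, with a difference of 0.36 ± 0.36 (limma adjusted p = 0.494, 95% interval -0.38 to 1.10). Control arrays of week 20 read 14.1, 21.6, 4.09 and 17.9 and knockout arrays -3.92, 50.04, 41.8 and 58.1. Knockout replicate 1 was below every control array and the other knockout arrays were above all of them, so the difference was 0.64 ± 0.36 (limma adjusted p = 0.309). Without that array Cd3d passed the threshold, at 1.15 (limma adjusted p = 0.0215).

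Cd8b1 encodes CD8 beta, the chain that pairs with CD8 alpha on conventional killer T cells, and it had 2 probes. The stronger probe read 18.3, 17.3, 18.2 and 16.3 on control arrays of week 8 and 240, 166, 181 and 97.2 on knockout arrays. The groups stood far apart, and Cd8b1 rose by 2.42 ± 0.23 (limma adjusted p = 3.5e-09). At week 4 the control arrays read 27.6, 35.2, 19.1 and 22.8 and the knockout arrays 46.2, 55.5, 43.5 and 50.2. The groups did not overlap and Cd8b1 rose by 0.63 ± 0.23 (limma adjusted p = 0.0383). That call ended without control replicate 1, 4 or 5 or knockout replicate 1, 3 or 5, each left out by itself (limma adjusted p from 0.0570 to 0.108). At week 20 it read 20.8, 9.05, 17.9 and 4.70 on control arrays and 21.3, 20.0, 26.5 and 45.4 on knockout arrays. Knockout replicate 4 alone stood well clear of the controls, and the difference was 0.61 ± 0.23 (limma adjusted p = 0.111, 95% interval 0.15 to 1.08). The weaker Cd8b1 probe did not pass the filter, with 2 of 24 arrays above background, both of knockout week 8. Fitted with all probes and no filter, it differed by 0.27 ± 0.21, 0.83 ± 0.21 and -0.21 ± 0.21 at weeks 4, 8 and 20 (limma adjusted p = 0.526, 0.00467 and 0.700). The 2 probes thus differ in sign at week 20, where neither passed the threshold.

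Cd8a, the alpha chain of the same co-receptor, gave no signal to set beside Cd8b1. Its probe read -4.57, -12.3, -14.8 and -5.22 on the knockout arrays of week 8, and its highest value on any array was 15.5, on control week 20 replicate 1. With no filter the Cd8a difference was 0.15 ± 0.16 at week 4 and -0.065 ± 0.16 at week 20, and at week 8 every array of both groups was at the floor of the scale. Whether the transcript was scarce or the probe did not respond was not tested.

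Thy1 encodes the surface glycoprotein Thy-1, a marker of mouse T cells and of fibroblasts. On control arrays it read 4.04, 16.04, 25.9 and 10.2 at week 8, against 115, 121, 148 and 159 on knockout arrays. All knockout arrays were above all controls, and Thy1 rose by 2.38 ± 0.28 (limma adjusted p = 1.4e-07). At week 4 it read 11.7, 6.96, 27.3 and 43.0 in controls and 52.1, 64.7, 41.2 and 38.6 in knockouts. Control replicate 5 lay within the knockout range, and Thy1 rose by 0.85 ± 0.28 (limma adjusted p = 0.0240, exact two-sided permutation p = 0.0857). The limma call ended without control replicate 1 or 3 or knockout replicate 1 or 3, each left out by itself (limma adjusted p from 0.0504 to 0.111). Control arrays of week 20 read 30.6, 25.8, 44.0 and 13.4 and knockout arrays 39.6, 93.8, 65.7 and 63.0. Knockout replicate 1 was the lowest of its group and within the control range, and the difference was 0.88 ± 0.28 (limma adjusted p = 0.0608). Without that array Thy1 passed the threshold, at 1.05 (limma adjusted p = 0.0436).

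Klrd1 encodes CD94, which pairs with NKG2 proteins to form receptors of NK cells and some killer T cells. At week 8 its controls read -1.60, 1.95, -2.54 and 3.26 and its knockouts 107, 79.0, 132 and 74.4. No control array was above background and every knockout array was, and Klrd1 was at least 5.83-fold higher, taking the background threshold for the controls (difference 2.69 ± 0.30, limma adjusted p = 5.3e-08). At week 4 control arrays gave 3.08, 22.1, 33.8 and 11.7 and knockout arrays 40.3, 30.2, 25.6 and 54.6. Control replicate 4 lay within the knockout range, and the difference was 0.73 ± 0.30 (limma adjusted p = 0.0691). Without that array Klrd1 passed the threshold, at 0.95 (limma adjusted p = 0.0250). At week 20 controls read 2.34, 1.49, 0.995 and 13.8 and knockouts 52.3, 16.3, 10.1 and 37.2. Knockout replicate 3 alone lay within the control range, replicates 2 and 3 were not above the background threshold, and Klrd1 rose by 1.06 ± 0.30 (limma adjusted p = 0.0365, exact two-sided permutation p = 0.0571). The call ended without control replicate 1, 2 or 3 or knockout replicate 1 or 4, each left out by itself (limma adjusted p from 0.0605 to 0.119), and without control replicates 3 and 4 together, where the difference was 1.22 (limma adjusted p = 0.0637).

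Klra17 encodes Ly49Q, an inhibitory lectin-like receptor that in mice is carried by plasmacytoid dendritic cells and myeloid cells. It had the largest difference of the 7 at week 8, with -1.48, 25.3, -0.748 and -7.09 on control arrays and 274, 243, 660 and 98.9 on knockout arrays. The knockout arrays differed several-fold among themselves and were all above the controls, of which replicate 3 alone passed the background threshold. Klra17 rose by 3.77 ± 0.38 (limma adjusted p = 1.2e-08). With 3 of 4 controls below background the size of the difference moved with the settings, from 2.51 to 6.84 over the alternatives run. At week 4 the control arrays read -8.12, -0.790, 2.45 and -10.5 and the knockout arrays 17.05, 15.3, 10.2 and 20.4. These groups did not overlap, but the knockout values lay around the background threshold, and the difference was 0.93 ± 0.38 (limma adjusted p = 0.0709, exact two-sided permutation p = 0.0286, which is the lowest value 4 arrays against 4 can reach). Klra17 had a p under 0.05 in 6 of 20 alternatives. Among them was the exact test, whose p is not adjusted over the genes and here restates that the groups did not overlap. The others were limma fits: the 8 arrays of week 4 alone (limma adjusted p = 0.00530), array weights (0.0185), the replicate block (0.0222), an offset of 1 (0.00973) and a second quantile normalization (0.0101). At week 20 knockout arrays read -3.57, 23.5, 18.9 and 4.65, against 6.68, 5.99, 4.09 and -2.12 in controls. The groups overlapped, with a difference of 0.38 ± 0.38 (limma adjusted p = 0.610, 95% interval -0.40 to 1.16).

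Nkg7 encodes a membrane protein of cytotoxic granules that in mice is needed for their release. Its week 8 values were near background, with 2.90, 8.28, -1.54 and 5.18 on control arrays and 28.3, 15.8, 30.7 and 24.4 on knockout arrays. The groups did not overlap and Nkg7 rose by 1.02 ± 0.26 (limma adjusted p = 0.00239). At week 4 it read 0.109, 23.3, 9.41 and 7.77 in controls and 6.84, 8.45, 2.63 and 14.3 in knockouts. The knockout values lay within the control range, with a difference of -0.07 ± 0.26 (limma adjusted p = 0.875, 95% interval -0.61 to 0.47). Week 20 gave 10.8, -1.81, -3.01 and -4.22 in controls and 6.46, 17.6, 18.3 and 4.02 in knockouts. Knockout replicates 2 and 3 were just above background and the difference was 0.56 ± 0.26 (limma adjusted p = 0.223, 95% interval 0.016 to 1.10). Gzmb, the granzyme that cleaves caspases in target cells, read -2.81, -14.5, -7.60 and 5.94 on the knockout arrays of week 8, and its highest value on any array was 6.56.

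Ccl5 encodes the chemokine CCL5, also called RANTES, which attracts T cells, NK cells and monocytes. It was the only one of the 10 genes above background on all 24 arrays. At week 8 controls read 45.8, 66.7, 24.7 and 46.1 and knockouts 417, 281, 432 and 273. The groups were far apart, and Ccl5 rose by 2.58 ± 0.22, or 5.99-fold as a ratio of intensity + 16 (limma adjusted p = 1.1e-09). At week 4 control arrays gave 51.2, 87.9, 90.1 and 74.7 and knockout arrays 178, 121, 92.2 and 149. All knockout arrays were above the controls, replicate 4 only just, and Ccl5 rose by 0.70 ± 0.22 (limma adjusted p = 0.0208). That call ended without control replicate 1 or knockout replicate 1 or 5, each left out by itself (limma adjusted p from 0.0610 to 0.0889). At week 20 controls read 37.8, 30.2, 41.2 and 37.7 and knockouts 102, 160, 99.0 and 160. No arrays overlapped, and Ccl5 rose by 1.45 ± 0.22 (limma adjusted p = 3.6e-04), rank 30 of all genes by p and rank 64 by difference. Ccl5 kept this call under each of the 21 alternatives tried for week 20, with differences between 1.04 and 1.80. The exact two-sided permutation p over the 8 arrays of week 8 was 0.0286 for each of the 7 genes, and 0.0286 at week 20 for Ccl5 alone.

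**Figure D2:**
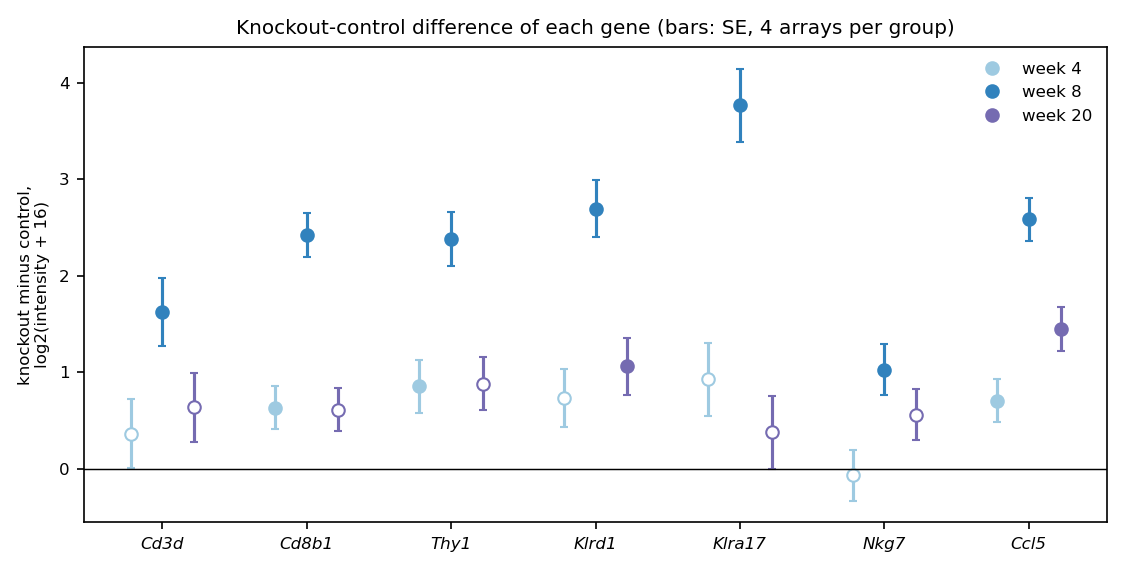
Knockout-control difference of the 7 tested genes on the log2(intensity + 16) scale at weeks 4, 8 and 20, with SE bars and 4 arrays per group. Filled points passed an adjusted p of 0.05 and open points did not; all 7 are filled at week 8, and at week 20 Klrd1 and Ccl5 are filled.

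The growth and loss of these differences were tested by themselves. From week 4 to week 8 the knockout-control difference grew for 5 of the 7 genes, against 5.57% of all genes. It grew by 2.84 ± 0.53 for Klra17 (limma adjusted p = 0.00107), 1.96 ± 0.42 for Klrd1 (limma adjusted p = 0.00336) and 1.88 ± 0.32 for Ccl5 (limma adjusted p = 3.5e-04). For Cd8b1 and Thy1 the growth was 1.79 ± 0.32 and 1.53 ± 0.39 (limma adjusted p = 6.3e-04 and 0.0148). Cd3d and Nkg7 did not pass, with 1.26 ± 0.51 and 1.09 ± 0.37 (limma adjusted p = 0.129 and 0.0677). The Klra17 and Thy1 calls ended with an offset of 1 (limma adjusted p = 0.193 and 0.0849) and with a second quantile normalization (0.191 and 0.0851), and that of Thy1 also with the replicate block (0.0773). Nkg7 passed with an offset of 50 (limma adjusted p = 0.0460) and without control week 4 replicate 1 (0.0277).

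From week 8 to week 20 the difference shrank for 5 of the 7 genes, against 16.9% of all genes. It decreased by 3.39 for Klra17 (SE 0.53, limma adjusted p = 3.4e-05), by 1.81 for Cd8b1 (SE 0.32, limma adjusted p = 1.2e-04) and by 1.64 for Klrd1 (SE 0.42, limma adjusted p = 0.00429). For Thy1 and Ccl5 the change was -1.50 ± 0.39 and -1.14 ± 0.32 (limma adjusted p = 0.00524 and 0.00818). Cd3d and Nkg7 again did not pass, with -0.99 ± 0.51 and -0.46 ± 0.37 (limma adjusted p = 0.143 and 0.373). The Klrd1 call ended with an offset of 1 and with a second quantile normalization (limma adjusted p = 0.0571 in both). Between weeks 4 and 20 the difference of none of the 7 passed the threshold in limma, where 6.08% of all genes moved up and 7.23% down. Ccl5 alone of the 7 had an unadjusted p under 0.05 there (change 0.74 ± 0.32, limma adjusted p = 0.126). The changes into and out of week 8 share the week 8 arrays.

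Within the knockout groups, 5 of the 7 genes rose from week 4 to week 8 (4.98% of all genes), among them Klra17 by 3.13 ± 0.38 (limma adjusted p = 1.3e-05), with 2 of the 4 knockout arrays of week 4 above background. From week 8 to week 20, 6 of the 7 fell (22.2% of all genes). As a ratio of intensity + 16, taken back from the log2 means, Klra17 was at 9.40% and Cd8b1 at 24.1% of the week 8 value. Klrd1 was at 37.4% and Ccl5 at 39.9%, Thy1 at 52.6% and Cd3d at 54.4%. The added 16 raises these percentages for weak signals, and the mean intensity of Klra17 was 319 at week 8 and 10.9 at week 20. The Cd3d call was close to the threshold (limma adjusted p = 0.0496), and its groups overlapped (exact two-sided permutation p = 0.0571). Its knockout week 20 replicate 1 read -3.92, which lowers the percentage, while the other arrays of that group read 41.8 to 58.1. Nkg7, at 66.5%, did not pass (limma adjusted p = 0.0749). From week 4 to week 20, 1 of the 7 fell in knockouts (17.5% of all genes), Cd8b1, by 0.58 (SE 0.23, limma adjusted p = 0.0499).

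In control livers, none of the 7 passed the threshold in limma from week 4 to 8, where 3.19% of all genes rose and 4.79% fell, or from week 8 to 20, where 0.0186% rose and 0.00932% fell. Ccl5 and Klrd1 had an unadjusted p under 0.05 in the first of these, at -0.59 ± 0.22 and -0.88 ± 0.30, and none of the 7 did in the second. From week 4 to 20, 1 of the 7 fell (6.75% of all genes), Ccl5, by 0.78 (SE 0.22, limma adjusted p = 0.0218). Cd8b1 and Klrd1 did not pass but had an unadjusted p under 0.05 there, at -0.56 ± 0.23 and -0.66 ± 0.30 (limma adjusted p = 0.115 and 0.163). These comparisons share arrays with those between genotypes.

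Ordered by mean log2(intensity + 16), the knockout week 8 group was highest for each of the 7. For Ccl5 it stood at 8.49 ± 0.34, followed by 7.20 ± 0.36 in knockouts of week 4 and 7.16 ± 0.34 in knockouts of week 20, then 6.50 ± 0.30, 5.91 ± 0.42 and 5.72 ± 0.13 in controls of weeks 4, 8 and 20 (SD, n = 4 each). The knockouts of weeks 4 and 20 differed by less than either SD, and the controls of weeks 8 and 20 by less than the SD of week 8 only. For Klra17 the top group stood at 8.11 ± 1.05 and the other groups lay between 4.05 and 4.98. For Thy1 the top group stood at 7.24 ± 0.20, then 6.31 ± 0.40 in knockouts of week 20 and 6.01 ± 0.26 in knockouts of week 4, which overlapped, and its controls lay between 4.86 and 5.43.

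The knockout arrays of week 8 differed from each other in a like way for most genes. Replicate 3 was the highest of the 4 for 5 of the 7 genes and replicate 4 the lowest for 5 of the 7, the exceptions for replicate 4 being Thy1, where it was highest, and Nkg7. The summed intensity of 12 pan-leukocyte markers on the same arrays was 16894 on replicate 3, 14300 on replicate 1, 11457 on replicate 2 and 10082 on replicate 4. Replicate 4 is also the array with Eif2s3y below 0. The 7 calls of week 8 held without it. In knockouts of week 20 there was no such common order, and replicate 1 was lowest for Cd3d, Thy1 and Klra17 and highest for Klrd1. The part of total leukocyte RNA in any of these results was not tested.

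**Figure D3:**
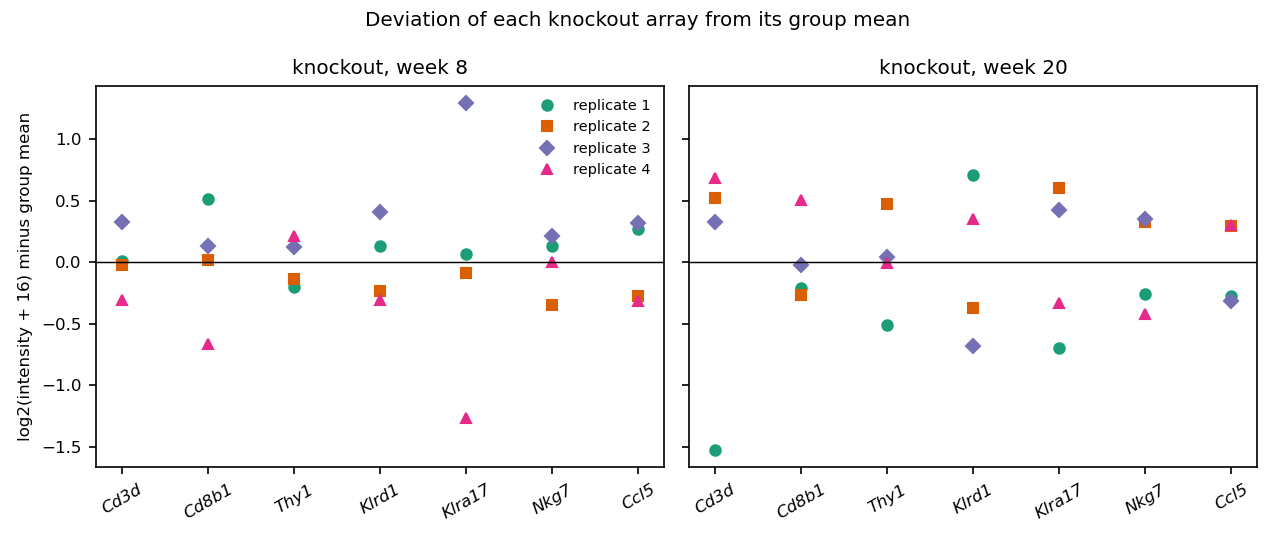
Deviation of each knockout array from its group mean on the log2(intensity + 16) scale for the 7 tested genes, at week 8 (left) and week 20 (right), with a symbol per replicate. At week 8 replicate 3 is highest for 5 of the 7 genes and replicate 4 lowest for 5, and at week 20 replicate 1 lies lowest for Cd3d, Thy1 and Klra17 but highest for Klrd1.

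Across the 24 arrays Klrd1 and Ccl5 followed each other most closely. The root mean square difference of their log2 values, each centred on its own mean, was 0.38, and each was the nearest to the other of the 10732 genes compared. The nearest genes outside the set were Sash3, Pip4k2a and Lbh for Klrd1 (0.38 to 0.39) and Lbh, Cln6 and Slc6a8 for Ccl5 (0.39 to 0.43). Cd8b1 had Ccnd2, Prkcb and Lbh (0.33 to 0.34), with Ccl5 at rank 75 for it. Cd3d was nearest to Blvrb, Def6 and Tbc1d10c (0.44 to 0.45), Thy1 to Itgb7, Pdgfb and Timp2 (0.41 to 0.48) and Nkg7 to Coro1b, Man2b1 and Tagap (0.31 to 0.32). Klra17 had no gene closer than 0.58, that of Clec4b1, followed by Mogat2 and Arg2. These distances share the same arrays and groups, and a gene of small range lies near many others.

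Other genes of the T cell receptor were measured mostly near background. Of 25 listed genes of the receptor, its co-receptors and its signalling, 15 passed the filter, the members Cd3d, Cd8b1 and Thy1 included. Of these, 3 rose and 1 fell at week 4, 10 rose and 1 fell at week 8, and 1 rose and 1 fell at week 20, with medians of 0.36, 0.78 and 0.57. Of all genes, 14.8%, 24.9% and 3.44% rose and 12.4%, 24.0% and 2.23% fell at weeks 4, 8 and 20. The counts of this list and of those below are to be read beside these shares. Lck, the kinase bound to CD4 and CD8, rose by 1.15 ± 0.32 at week 8 (limma adjusted p = 0.00435), with control arrays at 14.2 to 27.5 and knockout arrays at 48.0 to 83.9. The adaptor gene Lcp2 and Bcl11b, a transcription factor of T cells, rose by 1.29 ± 0.28 and 0.96 ± 0.30 at week 8 (limma adjusted p = 4.3e-04 and 0.0100). Cd3e and Cd3g, further chains of the CD3 complex, differed by 0.47 ± 0.23 and 0.75 ± 0.31 at week 8 (limma adjusted p = 0.100 and 0.0468), and of these Cd3g passed. Icos, a co-stimulatory receptor of activated T cells, fell at weeks 4 and 8, by 0.60 and 0.50 (limma adjusted p = 0.0233 and 0.0373). Cd4, Cd8a and Ubash3a were above background on no array.

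Zap70, the kinase that binds the CD3 chains, had by far the strongest signal of that list and another course. Its mean intensity was 181, 527 and 645 at weeks 4, 8 and 20 in control liver, and in knockout liver it was 601, 769 and 1186. It rose by 1.66 ± 0.23 and 0.94 ± 0.23 at weeks 4 and 20 (limma adjusted p = 7.7e-06 and 0.0196), and differed by 0.51 ± 0.23 at week 8 (limma adjusted p = 0.0754).

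NK cell genes were followed in the same way. Of 22 listed, 9 passed the filter, and 3 rose at week 4, 7 at week 8 and 1, Klrd1 itself, at week 20, with none lower at these weeks and medians of 0.52, 1.28 and 0.26. Klra7 and Klre1, receptors of NK cells in mice, rose by 1.61 ± 0.20 and 1.28 ± 0.25 at week 8 (limma adjusted p = 4.7e-07 and 1.7e-04). No control array of week 8 was above 0 for either, and the knockout arrays read 28.2 to 48.5 for Klra7 and 15.6 to 45.6 for Klre1. Each was above background on 4 arrays, the fewest that the filter admits, and for Klra7 these were the knockout arrays of week 8. Both rises, and the count of this list at week 8, are therefore a description. Fcer1g and Tyrobp, adaptor chains that NK cells share with macrophages, rose by 3.22 ± 0.22 and 1.83 ± 0.25 at week 8 (limma adjusted p = 1.4e-11 and 1.6e-06), with mean intensities of 4402 and 656 in knockouts. Klrb1c, which encodes NK1.1, and Il2rb, a chain of the interleukin 2 receptor, differed by 0.18 ± 0.28 and -0.24 ± 0.33 at week 8 (limma adjusted p = 0.618 and 0.573). Ncr1 and Eomes, further defining genes of NK cells, were above background on no array.

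Of 14 listed granule and killing genes, 5 passed the filter. Of these, 1 rose at week 4, 2 at week 8, Nkg7 and Ctsw, and none at week 20 in limma, where those same genes had an unadjusted p under 0.05. The shares of all genes that rose were 14.8% and 24.9% at weeks 4 and 8, and 5 genes are too few to set against them. Ctsw, a protease of T and NK cells, rose by 1.57 ± 0.24 at week 8 (limma adjusted p = 7.4e-06) and differed by 0.71 ± 0.24 at week 20 (limma adjusted p = 0.0786). Prf1, perforin, rose by 0.63 ± 0.20 at week 4 (limma adjusted p = 0.0211) and differed by 0.23 ± 0.20 at week 8 (limma adjusted p = 0.350). Control arrays of week 4 already read 350 to 432 for it. Gzmm, another granzyme, differed by 0.80 ± 0.35 at week 8 (limma adjusted p = 0.0599). Gzmb, Gzmc, Ifng and Serpinb9 were above background on no array.

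Of 13 listed chemokines of T cells and their receptors, 11 passed the filter, with 6, 10 and 4 higher at weeks 4, 8 and 20 and none lower, and medians of 0.71, 2.09 and 0.39. The 4 of week 20 were Ccl5, Ccl4, Cx3cr1 and Cxcl16. Ccl4, a chemokine of the same CC family as Ccl5, rose by 2.71 ± 0.34, 4.83 ± 0.34 and 1.46 ± 0.34 at the 3 weeks (limma adjusted p = 1.3e-06, 2.3e-11 and 0.0118). At week 20 its control arrays read 11.1 to 45.7 and its knockout arrays 63.6 to 101. Cx3cr1, the fractalkine receptor of monocytes and NK cells, rose by 0.99 ± 0.30, 3.17 ± 0.30 and 1.14 ± 0.30 (limma adjusted p = 0.0153, 5.0e-09 and 0.0278). Cxcl16, the ligand of CXCR6, rose by 1.12 ± 0.16, 1.87 ± 0.16 and 0.58 ± 0.16 (limma adjusted p = 8.0e-06, 6.6e-10 and 0.0308). Cxcl10, an interferon-induced ligand of CXCR3, rose by 2.33 ± 0.37 and 3.50 ± 0.37 at weeks 4 and 8 (limma adjusted p = 3.6e-05 and 2.4e-08) and differed by 0.39 ± 0.37 at week 20 (limma adjusted p = 0.583). Its receptor gene Cxcr3 rose at week 8 by 0.78 ± 0.26 (limma adjusted p = 0.0170), with knockout arrays at 17.7 to 27.5.

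Checkpoint and activation genes had 2 higher and 1 lower of 10 tested at week 4, 5 higher and 1 lower at week 8 and none past the limma threshold at week 20, where Tnfrsf9 alone had an unadjusted p under 0.05. At week 4, 14.8% of all genes rose and 12.4% fell, shares near those of this list. At week 8, 24.9% of all genes rose and 24.0% fell. Cd274, which encodes PD-L1 and is carried by many cell types, rose by 1.39 ± 0.20 and 2.05 ± 0.20 at weeks 4 and 8 (limma adjusted p = 1.3e-05 and 1.0e-08) and differed by 0.026 ± 0.20 at week 20 (limma adjusted p = 0.962). Cd69, an early activation marker, rose by 1.80 ± 0.37 at week 8 (limma adjusted p = 2.3e-04). Pdcd1, which encodes the inhibitory receptor PD-1 of T cells, was the gene that fell, by 0.67 and 0.89 at weeks 4 and 8 (limma adjusted p = 0.0494 and 0.00472). MHC class I genes, whose products present peptides to CD8 T cells, had 10 higher and 1 lower of 13 at week 4, 7 higher and 0 lower at week 8 and none past the limma threshold or an unadjusted p of 0.05 at week 20, with medians of 0.66, 0.60 and -0.047. Tap2, a subunit of the peptide transporter, rose by 1.12 ± 0.18 and 0.95 ± 0.18 at weeks 4 and 8 (limma adjusted p = 5.5e-05 and 1.4e-04).

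**Figure D4:**
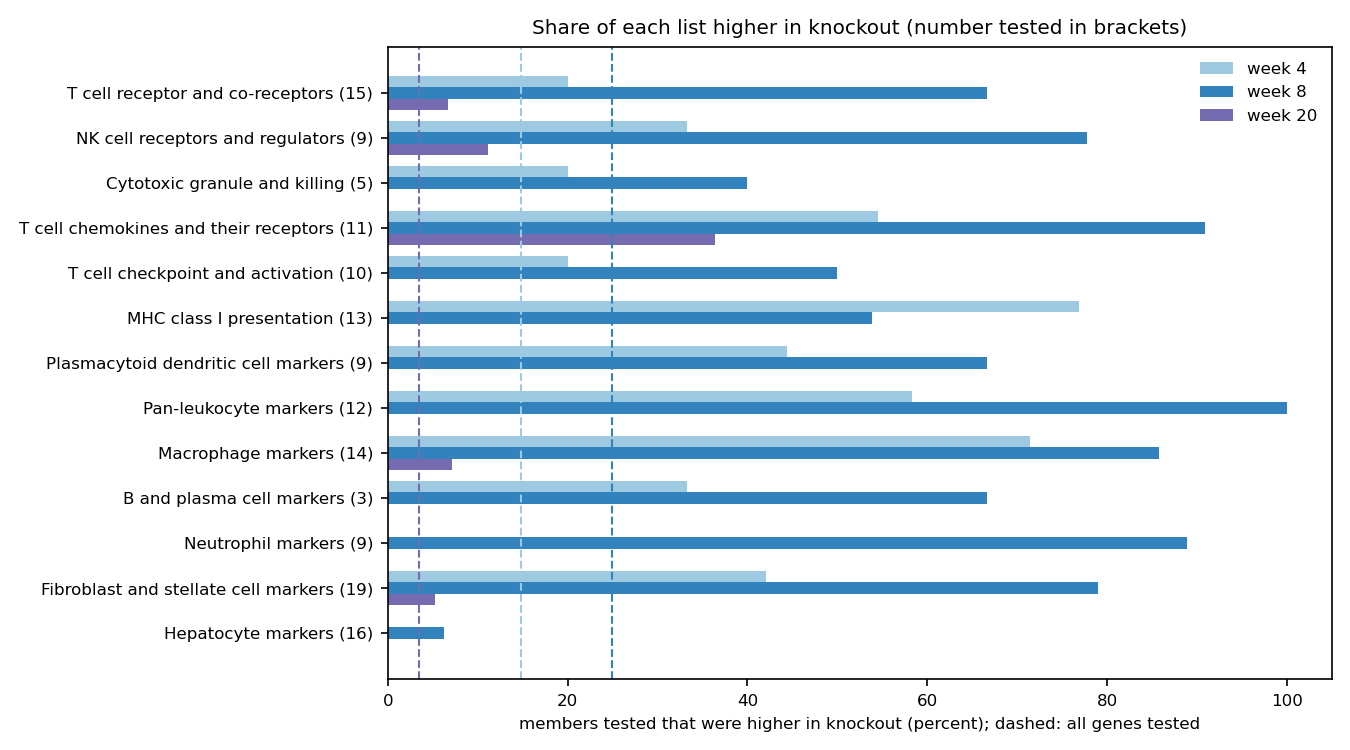
Percent of the tested genes of 13 lists that were higher in knockout liver at an adjusted p under 0.05, at weeks 4, 8 and 20, with the number tested in brackets and dashed lines for all genes tested (14.8%, 24.9% and 3.44%). Every bar of week 8 reaches past its line except that of the hepatocyte markers, 1 of 16, and at week 20 the chemokine list has the longest bar, 4 of 11.

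Markers of other blood and liver cells moved in the same samples. All 12 pan-leukocyte markers tested rose at week 8, with a median of 1.91, where 24.9% of all genes rose. Ptprc, Cd37 and Itgb2 among them were above background on only 4, 5 and 7 arrays, and 4 is the fewest that the filter admits. Such genes can pass the filter through the knockout arrays of week 8. This count, and the week 8 counts of other lists with such genes, are therefore a description. At week 4, 7 of the 12 rose, and none did at week 20 in limma, where Cd37 and Cd52 had an unadjusted p under 0.05. Their summed intensity was 2281 to 2759 in controls and 10082 to 16894 in knockouts of week 8, and 1849 to 3768 against 2164 to 4040 at week 20. That overlap came from control week 20 replicates 3 and 4, which stood apart for Saa1, at 3379 and 3768. Control replicates 1 and 2, at 2137 and 1849, lay below all knockout arrays of week 20. Of 14 macrophage markers 10, 12 and 1 rose at weeks 4, 8 and 20. Neutrophil markers had 8 of 9 higher at week 8, and B and plasma cell markers 2 of 3, with Ms4a1 and Pax5 above background on no array.

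Fibroblast and stellate cell markers, to be read beside Thy1, had 8 of 19 higher and 1 lower at week 4, 15 higher and 0 lower at week 8, and 1 higher and 1 lower at week 20. Their summed intensity was 7611 to 8387 in controls and 21184 to 25462 in knockouts of week 8. Plasmacytoid dendritic cell markers, to be read beside Klra17, had 4 of 9 higher at week 4, 6 at week 8 and none at week 20 in limma, where Tcf4 alone had an unadjusted p under 0.05. Pld4, Cox6a2 and Siglech rose by 2.62 ± 0.22, 2.94 ± 0.46 and 1.54 ± 0.28 at week 8 (limma adjusted p = 5.8e-10, 9.3e-06 and 6.1e-05). Runx2 and Lair1, listed with them, were above background on no array. The summed intensity of that list was 1425 to 2008 in controls and 2927 to 3907 in knockouts of week 8. The part of these cells in the results on the 7 genes was not tested. Of the genes outside the 10, Cd3e, Cd3g, Icos, Klrb1c, Il2rb, Ncr1, Eomes, Cxcr3, Pdcd1 and those named as above background on no array were named after their values were seen.

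**Figure D5:**
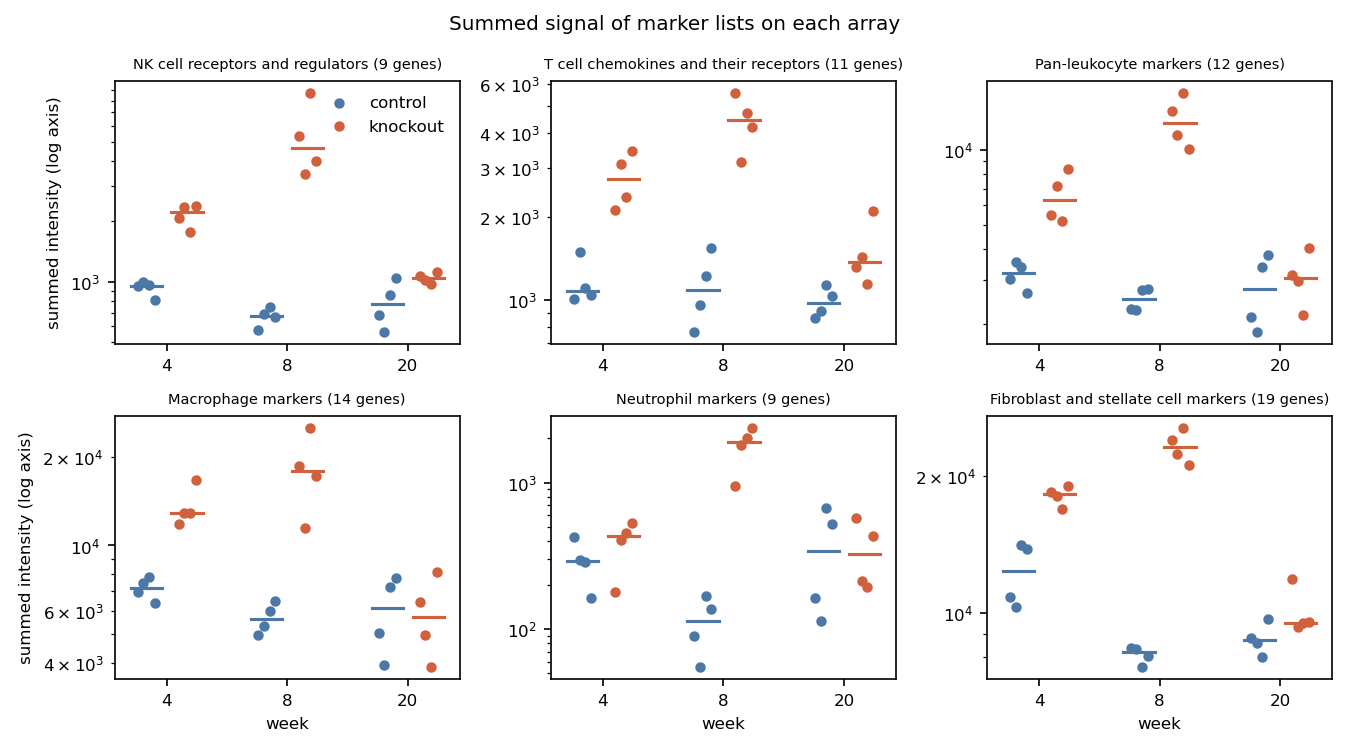
Summed intensity of 6 marker lists on each array (log axis) against week, for control (blue) and knockout (orange), with lines at the median of 4 arrays. In each list the knockout arrays of week 8 lie above the controls of that week. At week 20 the sums of both genotypes overlap in each list except the chemokine list, where the knockout arrays lie above the controls. For the pan-leukocyte and neutrophil sums that overlap comes only from control week 20 replicates 3 and 4, the arrays that stood apart for Saa1. For the NK cell and fibroblast sums it comes only from control week 20 replicate 4.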

How the data were processed

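Per the labels, total RNA of mouse liver was labelled with biotin and hybridised to Illumina expression arrays, 24 arrays in 6 groups of 4. The authors deposited background-subtracted, normalized intensity values, and per the submitters' processing notes GenomeStudio 2011 was used. The values hold 27.8% below 0, and the medians of the 24 arrays lay between 13.3 and 13.6, so they are normalized between arrays, by a method that the labels do not name. A second deposited table of non-normalized values gave the probes' gene symbols. Its 48 columns of values matched no sample by name and were not used. Symbols were brought to RefSeq GRCm38.p6 names: 20733 probes held a current symbol, 3872 were updated, 1061 kept the array's symbol and 31 had none and were left out.

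Values below 0 were set to 0, 16 was added and log2 was taken. The noise SD, from the negative values, was 7.03, and 2.326 times it gave the background threshold of 16.3. Probes above it on at least 4 arrays were kept (14519 of 25697), and the one of highest mean stood for each gene. limma 3.58.1 in R 4.3.3 fitted 6 group means over 24 arrays with a moderated, intensity-trended variance, and p-values were two-sided and adjusted by Benjamini-Hochberg over 10733 genes, with a threshold of 0.05. Single genes were also tested with an exact permutation test of 4 against 4 arrays, whose smallest p is 0.0286. Its p is not adjusted over the genes, and among the alternatives it was held to the same 0.05. The number of arrays limits the precision. No 2 arrays held identical values, and the highest correlation between arrays was 0.989.

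The 10 genes and the 13 gene lists were chosen with earlier results of these data known, so they are no independent evidence. Beside the 10, genes were named by rule: from each list the 4 of lowest p at week 8 and the 2 of lowest p at week 20 at most, the 3 nearest genes of each tested gene, Dnmt1, Alb and defining markers. Some genes that this rule names are not reported here. Alternatives were other offsets, filters, normalizations and probes, array weights, the arrays of 1 week alone, a replicate block, the exact test, and leaving out single arrays or arrays that stand apart. Fitting every probe with no filter was added after the data were seen.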

Additional observations from a re-analysis of the deposited data

Results flagged for a closer look

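Control week 20 replicate 1 read 10.8 for Nkg7 and control week 20 replicate 4 read 13.8 for Klrd1, each far above the other 3 control arrays of week 20 for its gene by Dixon's 95% criterion. Both values are under the background threshold of 16.3. Of 42 groups of 4 arrays checked, 2 were past the criterion, and chance gives about 1 in 20.

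The knockout-control difference changed with age, by limma's test of the change itself, for 5 genes over both intervals. From week 4 to week 8 it grew by 2.84 for Klra17, 1.96 for Klrd1, 1.88 for Ccl5, 1.79 for Cd8b1 and 1.53 for Thy1. The Klra17 and Thy1 calls of that interval ended with an offset of 1 and with a second quantile normalization, and that of Thy1 with the replicate block. From week 8 to week 20 it changed by -3.39 for Klra17, -1.81 for Cd8b1, -1.64 for Klrd1, -1.50 for Thy1 and -1.14 for Ccl5. The Klrd1 call of that interval ended with an offset of 1 and with a second quantile normalization.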

How the results depend on the processing

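Over 981 results of single genes under other settings, 900 kept their direction and their side of the threshold, 43 kept the direction and lost the call, 13 gained a call and 25 changed sign. None of those 25 concerned a called difference. They were Nkg7 at week 4, at 0.087 with an offset of 1, 0.072 with a second quantile normalization and -0.28 to 0.15 when single arrays were left out, and the changes from week 4 to 20 of Cd3d, Cd8b1 and Thy1. An offset of 1 gave -0.0074 for Cd3d, 0.32 for Cd8b1 and -0.19 for Thy1, and a second quantile normalization -0.016, 0.32 and -0.19. Thy1 was at -0.056 with array weights and -0.0062 without control week 20 replicates 3 and 4. Leaving out single arrays gave -0.19 to 0.10 for Cd8b1 and -0.21 to 0.24 for Thy1. The 7 rises of week 8 and that of Ccl5 at week 20 held under each alternative in which the gene was tested. Nkg7, above background on 6 arrays, was not tested under the filter that asked for at least 8. Klrd1 at week 20 lost its call in 13 of 21 alternatives, with p from 0.0167 to 0.155 over them (limma adjusted, or unadjusted in the exact test). Cd8b1 at week 4 lost it in 12 of 20 (0.0113 to 0.108) and Thy1 in 8 of 20 (0.00364 to 0.111). With the settings of the report, 608 of all genes passed at week 20, 959 for the change from week 4 to 8, 1429 for that from week 4 to 20, 856 between control weeks 4 and 8, 3 between control weeks 8 and 20 and 965 between knockout weeks 4 and 8. With no filter, 1 of the 7 genes was called higher at week 4 and 1 at week 20, and 390 of all genes passed at week 20 and 5 between control weeks 8 and 20. Array weights gave 5 higher at week 4, 1 higher at week 20, 2 lower between control weeks 4 and 8, and 1517 of all genes there and 6 between control weeks 8 and 20. The 8 arrays of the week alone gave 1 higher and 131 of all genes at week 20. Samples share only a replicate number: deviations of same-numbered arrays correlated at -0.120 to 0.00618 at week 4, -0.0321 to 0.0411 at week 8 and -0.145 to -7.2e-04 at week 20, and not every array correlated best with its own number. The replicate block gave 1 higher and 266 of all genes at week 20 and 430 of all genes for the change from week 4 to 8. An offset of 1 and a second quantile normalization each gave 3 higher for that change, 3 higher between knockout weeks 4 and 8, 1 lower between control weeks 4 and 8, 6 of all genes between control weeks 8 and 20 and 0 lower between knockout weeks 4 and 20. The offset of 1 gave 2 lower between control weeks 4 and 20. An offset of 50 and no filter each gave 0 lower between knockout weeks 4 and 20. Without control week 20 replicates 3 and 4 together, 1 was higher and 306 of all genes passed at week 20, 742 for the change from week 4 to 20, 34 between control weeks 8 and 20, and 0 of the 7 fell between control weeks 4 and 20. Leaving out single arrays moved the genes called higher from 0 to 3 at week 4 and from 1 to 3 at week 20, and those lower from 0 to 1 between control weeks 4 and 8, control weeks 4 and 20, and knockout weeks 4 and 20. All genes called ranged from 284 to 718 at week 20, from 570 to 802 between control weeks 4 and 8, from 1 to 64 between control weeks 8 and 20 and from 585 to 1146 between knockout weeks 4 and 8. The cause of these shifts was not tested. Signals near background limit Nkg7, Klra17 and the controls of Klrd1.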
